A study of Mus musculus with 12 samples.

Results

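The Kruppel-like factor genes Klf2, Klf3, Klf4, Klf5, Klf6, Klf7, Klf9, Klf10, Klf13 and Klf15 were followed in the oligodendroglial cell line Oli-neu, in cells given conditioned neuronal medium or the small molecule inhibitor Y27632. All array features annotated with one of these symbols were taken, which gave 18 features for 10 genes, out of 44290 features and 19087 named genes on the array. Klf4 and Klf10 had 1 feature each and the other genes 2, and every one of the 18 had a value on all arrays.

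Oli-neu is a mouse line of the oligodendrocyte lineage, and the cells used stably expressed PLP-EGFP, a fluorescent fusion of a myelin protein, in all groups. Cells were kept for 16 h in conditioned neuronal medium, taken from primary cultures enriched in neurons, or with Y27632, and were compared with untreated parallel cultures on 2-colour Agilent whole genome arrays. Each treatment had 6 arrays in a dye swap, 3 carrying the treated RNA as Cy3 and 3 as Cy5. The labels differ from the methods in several points. They call the first treatment a neuron treatment, they write the inhibitor as Y27631, and the series design text places neurons in both arms of the inhibitor experiment, whereas the channel labels call its reference untreated. The methods are followed here for what the groups were. The design text also speaks of technical replicates, and nothing says that arrays came from separate cultures, so p-values here describe only how arrays vary among themselves, and that variation may be technical. No source used here says whether the same untreated RNA served both experiments.

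Each value is a standardized log ratio of treated over untreated cells, given in standard deviations of the values on its array (SD units), since neither the base of the logarithm nor the centring is stated. It is a change and not a level, so levels of different genes cannot be compared. The deposited signs were reversed, because the files held mostly negative values for genes in the study's lists of up-regulated genes. Of 7 such genes with 1 feature, 6 were negative as deposited in conditioned medium and 7 with Y27632. Of 6 listed down-regulated genes with 1 feature, 0 were negative with either treatment. Klf6 is itself on a list of genes the study found lower with both treatments, so its direction here is no independent evidence. A feature is called higher or lower, or up-regulated or down-regulated, where its adjusted p in limma was under 0.05 and its mean was at least 1 SD unit from 0, and it is said to pass, rise or fall where the adjusted p alone was under 0.05. The p-value rests on the spread within a dye orientation, whereas the SD printed after each mean (n = 6 arrays) also holds the gap between the orientations.

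Kruppel-like factors are transcription factors with a set of zinc fingers at the C terminus that bind GC-rich and CACCC sequences. The fingers are much alike across the family, and the rest of each protein differs, so that some members activate and others repress, often at overlapping sites. Many are immediate or early response genes and are known from proliferation, quiescence and differentiation. Klf4 is known as a reprogramming factor and an inhibitor of growth in epithelia, and with its close relative Klf2 is induced in endothelium through ERK5 and MEF2. Klf5 is linked to proliferation, Klf6 to injury and stress responses and, in zebrafish and mouse, to the oligodendrocyte lineage, and Klf7 to axon growth. Klf9 is induced by thyroid hormone, also in oligodendrocyte precursors, and Klf13 belongs to the same subgroup. Klf3 recruits the corepressor CtBP, Klf10 is induced by TGF-beta, and Klf15 is induced by glucocorticoids and controls amino acid and glucose metabolism.

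The promoters of the genes with the largest or most dye-dependent changes are shown first, to give the motifs they hold. RefSeq promoter sequences of build GRCm38.p6 were given for 8 of the 10 genes, as windows of 300 bases with 250 before the start and 50 after it. The 250 bases before the start are printed 5′ to 3′ on the strand of the gene. For Klf4 the capitals mark GC boxes (GGGCGG on either strand) and an E box (CACGTG), and the first run of capitals holds 2 GC boxes that overlap. For Klf6 they mark CCAAT boxes on either strand, a GC box and an E box, and for Klf2 a MEF2 site. The Klf4 sequence lies at chr4:55532476-55532725 on the minus strand, the Klf6 sequence at chr13:5861239-5861488 and the Klf2 sequence at chr8:72318812-72319061, both on the plus strand.
Klf4: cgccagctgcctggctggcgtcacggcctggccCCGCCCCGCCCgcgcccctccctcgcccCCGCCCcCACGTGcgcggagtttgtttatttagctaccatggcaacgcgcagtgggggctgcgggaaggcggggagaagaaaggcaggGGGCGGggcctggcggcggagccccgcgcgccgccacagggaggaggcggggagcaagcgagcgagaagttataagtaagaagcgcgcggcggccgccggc
Klf6: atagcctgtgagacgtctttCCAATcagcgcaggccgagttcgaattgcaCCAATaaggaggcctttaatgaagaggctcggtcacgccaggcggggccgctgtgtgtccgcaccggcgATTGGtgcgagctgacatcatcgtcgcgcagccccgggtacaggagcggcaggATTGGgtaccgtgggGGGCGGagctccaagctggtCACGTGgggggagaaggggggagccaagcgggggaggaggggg
Klf2: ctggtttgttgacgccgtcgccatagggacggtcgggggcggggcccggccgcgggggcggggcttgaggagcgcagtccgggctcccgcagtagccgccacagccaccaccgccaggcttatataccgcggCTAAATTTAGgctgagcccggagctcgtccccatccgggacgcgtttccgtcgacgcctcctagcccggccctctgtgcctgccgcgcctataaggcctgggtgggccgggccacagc

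Matches in these windows are descriptions of letters and not of binding. A GC box, the sequence bound by Sp and Kruppel-like factors, was present in the windows of 7 of the 8 genes, all but Klf9, and in 35.7% of 32851 promoters of the same length. CACCC, searched on both strands, was present in 6 of the 8 against 57.5% of all promoters, and was missing from the windows of Klf4 and Klf6. CCAAT, bound by NF-Y, was found in 4 of 8 against 37.4%, with 4 copies in Klf6. The E box was found in Klf4, Klf6 and Klf15, against 7.15%. The palindromic MEF2 site was found in Klf2 alone, at position -118 from the start, against 0.557% of all promoters. The cAMP response element TGACGTCA (1.79% of promoters) and the CArG box bound by SRF (1.63%) were in none of the 8 windows.

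In conditioned neuronal medium most Kruppel-like factor features fell by the adjusted p alone. The members were chosen with earlier results of these data known, so their counts beside those of all features are descriptions only. Klf4 was the lowest of the genes at -3.26 ± 0.50 SD units and Klf6 followed at -1.77 ± 0.42 as the mean of its features. Klf2, Klf3, Klf5, Klf7, Klf9 and Klf10 also fell, by less than 1 SD unit as gene means, Klf13 rose by 0.51 ± 0.16, and Klf15 stood at 0.05 ± 0.12. Of the 18 features, 5 were called lower, against 5.57% of all measured features, and 1 was called higher, against 6.83%. By the adjusted p alone 14 fell and 1 rose, against 60.5% of all features that passed in either direction. The median over the 18 was -0.61 SD units, against -0.055 over all features, and 7 of the 18 had the same sign on all 6 arrays, against 31.2%. As gene means, Klf4 and Klf6 were called lower (5.29% of all genes) and none of the 10 was called higher (4.95%).

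**Figure D1:**
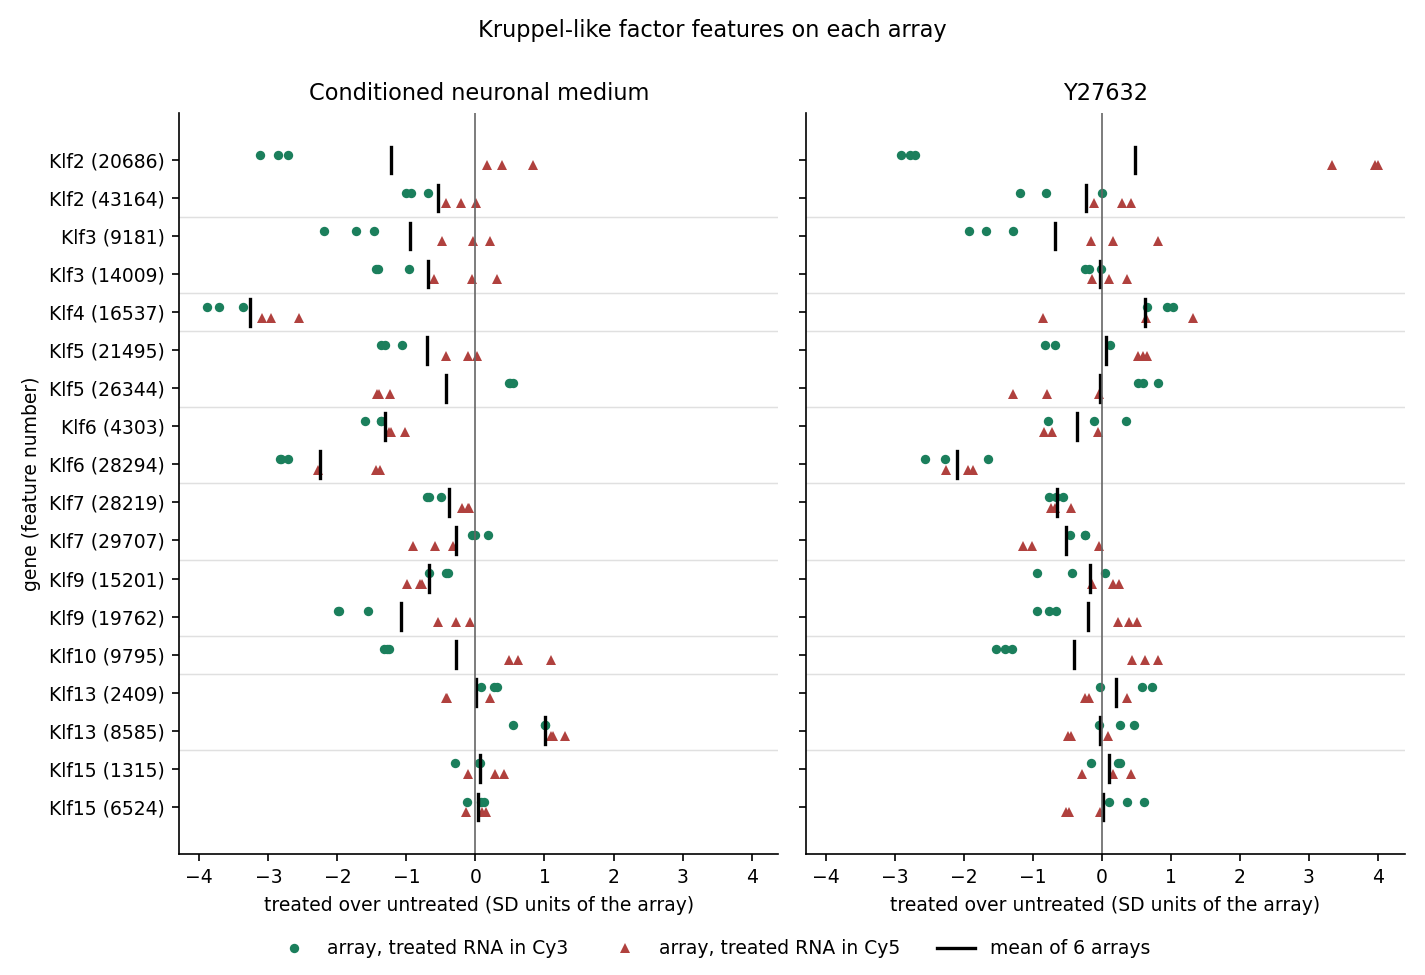
Value of each of the 18 Kruppel-like factor features on each array, treated over untreated in SD units, for conditioned neuronal medium and for Y27632, with symbols for the dye of the treated RNA and a bar for the mean. All 6 Klf4 values in conditioned neuronal medium lie between -3.89 and -2.56, and the values of Klf2 feature 20686 with Y27632 split by dye.

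The feature of Klf4 (16537) read -3.72, -3.37 and -3.89 SD units where the treated RNA was in Cy3, and -3.09, -2.56 and -2.96 on those with it in Cy5. All 6 arrays were far below 0 and the spread between them was small against the mean of -3.26 ± 0.50 (adjusted p = 1.7e-08). Its rank was 56 from the lowest among the 41230 measured features. The dye orientations differed by less than 1 SD unit, with means of -3.66 and -2.87.

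Klf6, the zinc finger gene known from injury responses, had features that differed in size but not in direction. Feature 28294 read -2.72, -2.83 and -2.82 with treated RNA in Cy3 and -2.28, -1.44 and -1.39 in Cy5 (mean -2.24 ± 0.68, adjusted p = 4.4e-07). Feature 4303 read -1.37, -1.36 and -1.60 in Cy3 and -1.22, -1.25 and -1.03 in Cy5 (mean -1.30 ± 0.19, adjusted p = 1.1e-06). Both features were below -1 on every array and both were called lower. On each of the 6 arrays the value of Klf4 was below that of either Klf6 feature. These were the members whose calls were made within each dye orientation on its own, 3 features of 2 genes, against 5.9% of all features called the same way in both orientations.

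Klf2, the relative of Klf4 in the ERK5 pathway, had a called feature whose value depended on the dye. Feature 20686 read -3.13, -2.71 and -2.86 with treated RNA in Cy3 but 0.84, 0.16 and 0.39 in Cy5. Its mean of -1.22 ± 1.86 was called lower with the dye term (adjusted p = 9.3e-06), while the groups of arrays lay on opposite sides of 0. Without the dye term its adjusted p was 0.198. The other Klf2 feature, 43164, read -1.01, -0.69 and -0.93 in Cy3 and -0.43, 0.00 and -0.21 in Cy5, for a mean of -0.54 ± 0.40 (adjusted p = 0.00061). Klf2 therefore fell by adjusted p on both features, but within the Cy5 arrays its called feature was above 0.

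Klf9, the thyroid hormone response gene, fell on both features. Feature 19762 read -1.98, -1.56 and -1.99 in Cy3 and -0.54, -0.29 and -0.08 in Cy5 (mean -1.07 ± 0.87, adjusted p = 1.3e-05) and was called lower. Its values were negative on all 6 arrays, but within the Cy5 arrays the mean of -0.30 did not pass (adjusted p = 0.088). Feature 15201 read -0.68, -0.39 and -0.43 in Cy3 and -0.99, -0.81 and -0.77 in Cy5 (mean -0.68 ± 0.23, adjusted p = 8.6e-05). The gene mean of Klf9 was -0.88 ± 0.36, close to those of Klf2 (-0.88 ± 1.11) and Klf3 (-0.82 ± 0.83), and these neighbours in the order of changes lay within each other's SDs.

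Klf13, of the same subgroup as Klf9, was the exception in direction. Feature 8585 read 1.01, 0.55 and 1.00 in Cy3 and 1.09, 1.29 and 1.12 in Cy5 (mean 1.01 ± 0.25, adjusted p = 1.2e-05), positive on every array and just past the size limit. The call was lost without replicate 1, 3 or 5, where the mean was 0.97, 0.98 and 0.98. It was also lost within the Cy3 arrays alone, where the mean was 0.86. The other Klf13 feature, 2409, an array probe for another cDNA record, stood at 0.00 ± 0.34 (adjusted p = 0.98), so that the rise of the gene mean came from a single feature.

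The corepressor-binding Klf3 and the proliferation-linked Klf5 fell by less than 1 SD unit. Klf3 feature 9181 read -1.73, -1.47 and -2.20 in Cy3 and -0.04, 0.21 and -0.48 in Cy5 (mean -0.95 ± 0.98, adjusted p = 0.00011), just short of the size limit, and Klf3 feature 14009 had a mean of -0.69 ± 0.72. Klf5 feature 21495 fell by 0.71 ± 0.61 and feature 26344 by 0.42 ± 1.02, and they depended on the dye in opposite ways. The first was lower with treated RNA in Cy3, and the second read 0.50, 0.49 and 0.54 in Cy3 and -1.40, -1.42 and -1.24 in Cy5. Feature 26344 is a probe for a cDNA record other than a RefSeq mRNA. The mean over the Klf5 features, -0.56 ± 0.23, had a smaller spread than either.

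Klf7, Klf10 and Klf15 had the smallest gene means. The Klf7 features stood at -0.38 ± 0.28 (28219) and -0.28 ± 0.41 (29707) and both passed, and feature 28219 was negative on all 6 arrays. Feature 28219 is a probe for a cDNA record other than a RefSeq mRNA. The RefSeq feature 29707 stood at 0.04 within the Cy3 arrays and -0.61 within the Cy5 arrays. The single Klf10 feature (9795) read -1.33, -1.25 and -1.28 in Cy3 and 0.49, 1.10 and 0.62 in Cy5, with a mean of -0.28 ± 1.13 (adjusted p = 0.032), which is a small mean between groups of arrays with opposite signs. Both Klf15 features, at 0.07 ± 0.26 and 0.03 ± 0.13, did not pass (adjusted p = 0.57 and 0.77).

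With Y27632 the Klf6 feature 28294 alone was called, and it was lower. It read -1.87, -2.26 and -1.95 with treated RNA in Cy5 and -2.57, -2.28 and -1.65 in Cy3, for a mean of -2.10 ± 0.33 (adjusted p = 1.8e-05). All 6 arrays were at -1.65 or below, and the rank was 189 from the lowest. The other Klf6 feature, 4303, read -0.73, -0.84 and -0.05 in Cy5 and -0.78, 0.35 and -0.11 in Cy3 (mean -0.36 ± 0.49) and did not pass (adjusted p = 0.13). The gene mean of Klf6 was -1.23 ± 0.33 and was called lower, so the call of the gene rested on 1 of its features.

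Of the 18 features, 1 was called lower with Y27632 against 4.13% of all features, and 0 higher against 3.94%. By the adjusted p alone 5 fell and 1 rose (36.9% of all features passed), and 3 had the same sign on all arrays (19.1%). The median was -0.10 SD units against -0.011 over all features. As genes, 1 of 10 was called lower (2.68% of all) and 0 higher (3.19%). Klf6 feature 28294 was also the single member called within each dye orientation alone (2.85% of all features).

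The Klf4 feature read 0.63, 1.32 and -0.85 in Cy5 and 1.03, 0.65 and 0.95 in Cy3 with Y27632, for a mean of 0.62 ± 0.77 that did not pass (adjusted p = 0.076). Replicate 3 was the single negative value, and without it the mean was 0.93 (adjusted p = 0.0019), still under the size limit. Klf2 feature 20686 read 3.99, 3.33 and 3.95 in Cy5 and -2.78, -2.71 and -2.91 in Cy3. Its mean of 0.48 ± 3.60 passed (adjusted p = 0.014), while the orientation means of 3.76 and -2.80 had opposite signs and lay much farther from 0 than the mean did.

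Klf7, the axon growth factor gene, fell with Y27632 on both features, by 0.64 ± 0.12 (28219, adjusted p = 0.0013) and by 0.52 ± 0.45 (29707, adjusted p = 0.027), and each of the 12 values was negative. Klf3 feature 9181 fell by 0.68 ± 1.11 (adjusted p = 0.0078) with opposite signs in the orientations, and Klf10 fell by 0.40 ± 1.13 (adjusted p = 0.017), reading 0.44, 0.62 and 0.81 in Cy5 and -1.30, -1.41 and -1.54 in Cy3. Both features of Klf5, Klf9, Klf13 and Klf15 and the remaining features of Klf2 and Klf3 did not pass, with means from -0.23 to 0.20.

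**Figure D2:**
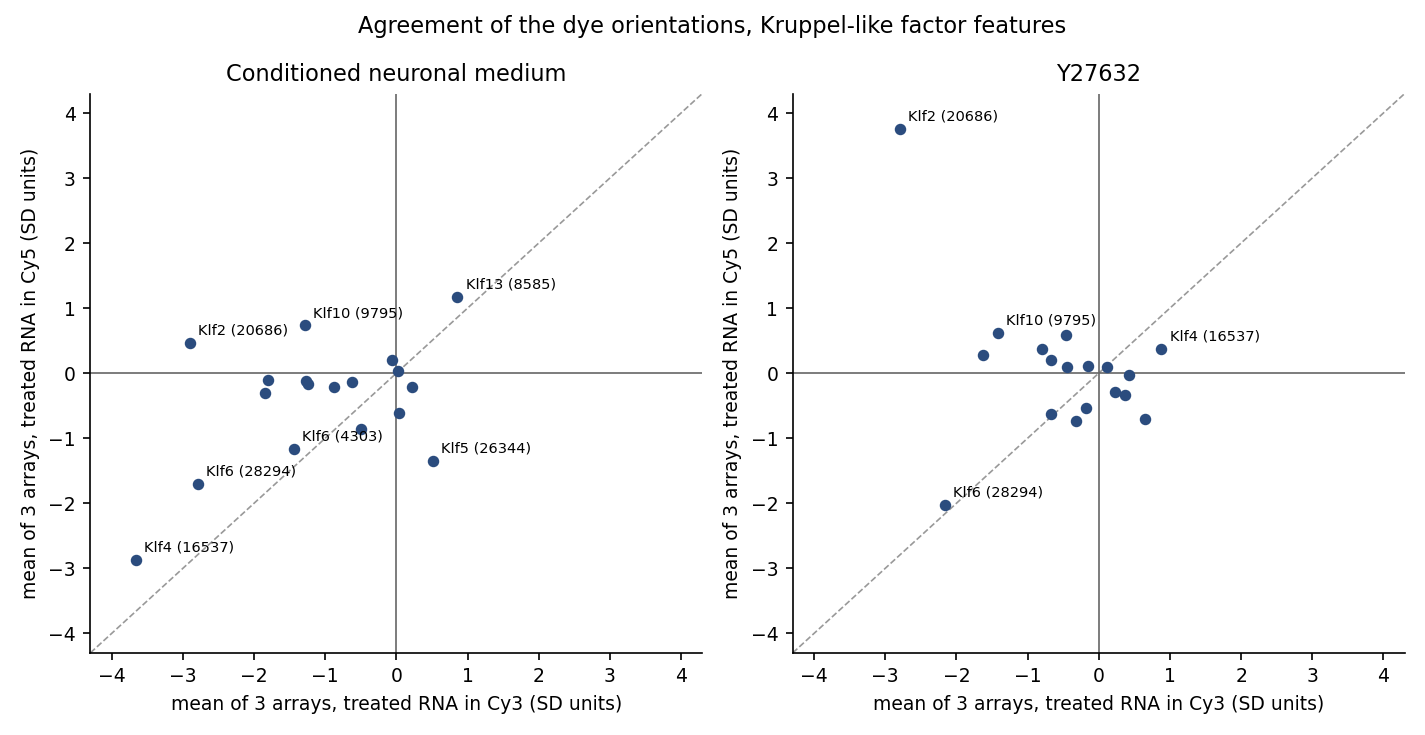
Mean of the 3 arrays with treated RNA in Cy3 (horizontal) against the mean of the 3 with it in Cy5 (vertical), in SD units, for each of the 18 features and each treatment, and the dashed line marks equal values. Klf4 (-3.66 and -2.87) and Klf6 feature 28294 (-2.79 and -1.70) have the same sign in both orientations of conditioned neuronal medium but lie off the line, and Klf2 feature 20686 lies farthest from it with Y27632, at -2.80 and 3.76.

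Many of these values differed between the dye orientations. In conditioned neuronal medium the orientations had opposite signs for 6 of the 18 features, against 47.5% of all features, and with Y27632 for 12 of the 18, against 58.5%. Across all features, arrays of the same orientation correlated with r from 0.859 to 0.890 in conditioned neuronal medium and from 0.731 to 0.809 with Y27632. Arrays of opposite orientation correlated with r from 0.249 to 0.296 and from -0.262 to -0.120. The array medians lay between -0.101 and 0.101.

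Among the 18 features the treatments differed most at Klf4, whose mean was -3.26 with the conditioned medium but 0.62 with the inhibitor. Conditioned medium minus Y27632 was -3.89 SD units (SE 0.29, adjusted p = 2.2e-07), and the values of the 2 treatments did not overlap. Of the 18 features, 8 passed this test, against 46.3% of all features, and 7 of them were lower in conditioned medium. Experiment and treatment cannot be told apart in this comparison, and the scale of the SD unit can differ between them.

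**Figure D3:**
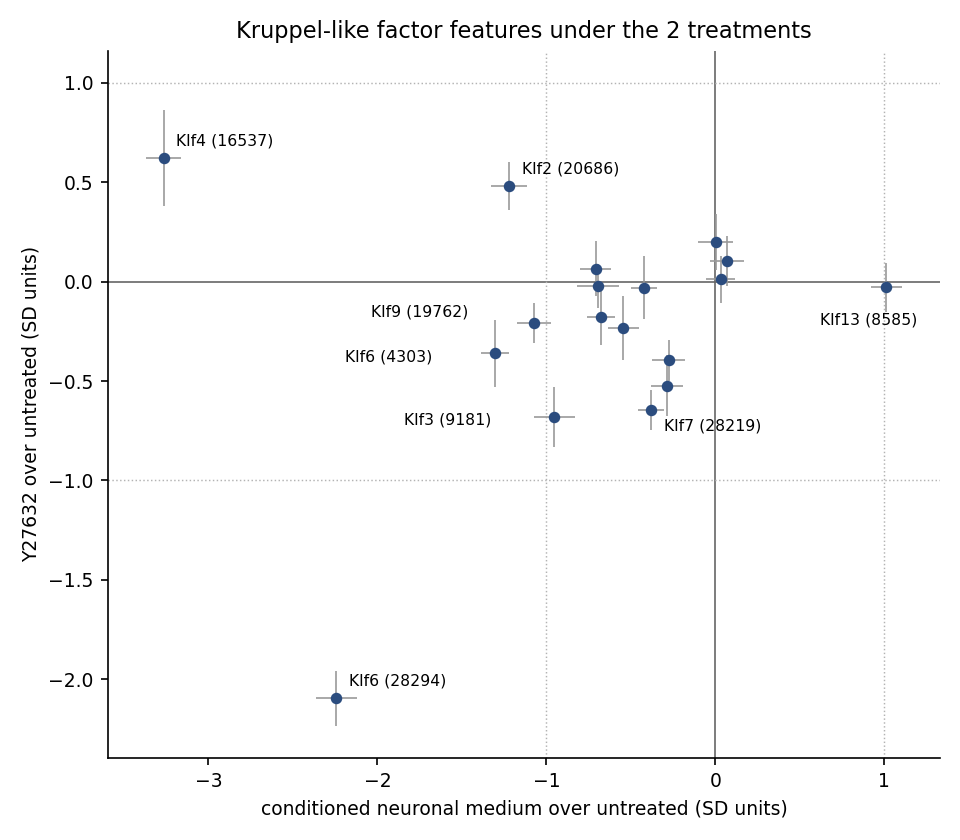
Mean change of each of the 18 features in conditioned neuronal medium (horizontal) against Y27632 (vertical), in SD units, with bars of 1 standard error from limma and dotted lines at 1 SD unit. Klf6 feature 28294 lies at -2.24 and -2.10, and Klf4 at -3.26 and 0.62.

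The features of Klf6 gave different results here. Feature 4303 was lower in conditioned medium by 0.94 SD units (difference -0.94, SE 0.20, adjusted p = 0.0015), and within the Cy5 arrays the difference of -0.62 did not pass (adjusted p = 0.081). Feature 28294 differed by -0.15 (95% confidence interval -0.57 to 0.27, adjusted p = 0.56). The Klf13 feature 8585 was higher in conditioned medium by 1.04 (SE 0.15, adjusted p = 9.9e-05) and kept this direction within both orientations, at 0.63 and 1.45. The other Klf13 feature, 2409, had a difference of -0.20 that did not pass (adjusted p = 0.40).

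Klf2 feature 20686 differed by -1.70 (adjusted p = 2.2e-06), but by -0.10 within the Cy3 arrays (adjusted p = 0.69) and by -3.30 within the Cy5 arrays. Klf9 was lower in conditioned medium on feature 19762 by -0.87 (adjusted p = 0.00017) and on feature 15201 by -0.50 (adjusted p = 0.024). Feature 15201 differed by -0.06 within the Cy3 arrays and by -0.94 within the Cy5 arrays. Klf5 feature 21495 (-0.77) and Klf3 feature 14009 (-0.67, adjusted p = 0.0057) were lower as well. Klf3 feature 14009 differed by -1.12 within the Cy3 arrays and by -0.23 within the Cy5 arrays. The other features of Klf2 (43164, -0.31, adjusted p = 0.21), Klf3 (9181, -0.27, adjusted p = 0.30) and Klf5 (26344, -0.39, adjusted p = 0.094) did not pass. Nor did both features of Klf7 and Klf15 and the single feature of Klf10.

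Genes around the family were read from lists chosen with earlier results of these data known, as gene means. By the adjusted p alone 12272 of all 19087 genes passed in conditioned medium and 7639 with Y27632, in either direction. In conditioned medium 4.95% of all genes were called higher and 5.29% lower, and with Y27632 3.19% and 2.68%. Of 6 further Kruppel-like factor genes with a value, none was called with either treatment, and with each treatment 2 rose and 1 fell by the adjusted p. The median of these 6 was 0.08 SD units in conditioned medium and -0.11 with Y27632. Of 8 Sp factor genes, which share the DNA-binding fingers, 4 rose and 2 fell in conditioned medium and 1 rose and 3 fell with Y27632. Sp5 was called higher in conditioned medium (1.37 ± 0.07) and none with Y27632. Of 15 genes of corepressors, coactivators and ubiquitin ligases that bind Kruppel-like factors, 8 fell and 5 rose in conditioned medium, and the ligase gene Smurf1 alone was called (-1.06 ± 0.20). With Y27632, 5 of the 15 rose, 3 fell and none was called.

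Upstream of Klf2 and Klf4, 3 of 7 measured genes of the ERK5 and MEF2 branch fell in conditioned medium and 2 rose. The transcription factor gene Mef2c was called lower at -1.38 ± 0.27, as the mean of features at -0.40 and -2.36. With Y27632 1 of the 7 rose and none was called. Of 6 hormone receptor genes upstream of Klf9 and Klf15, 3 fell and 1 rose in conditioned medium, and 2 rose with Y27632. The thyroid hormone receptor gene Thra was called lower (-1.08 ± 0.27, features at -0.20 and -1.97), and with Y27632 the retinoid X receptor gene Rxrg was called higher (1.04). Of 9 other targets of these receptors, 3 rose and 4 fell in conditioned medium, and 5 rose and 1 fell with Y27632. Among them Thrsp was called higher (1.04 ± 0.56) and the phosphatase gene Dusp1 lower (-1.32 ± 0.39) in conditioned medium, and none with Y27632. Of 11 TGF-beta pathway genes, which lie upstream of Klf10, 4 rose and 4 fell in conditioned medium, and 3 rose and 4 fell with Y27632. The co-receptor gene Tgfbr3 was called higher (1.27 ± 0.54) and the repressor gene Tgif1 lower (-1.12 ± 1.19) in conditioned medium, and none with Y27632. Tgif1 depended on the dye there, at -2.15 within the Cy3 arrays and -0.09 within the Cy5 arrays.

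Among 15 genes described as targets of Kruppel-like factors in mouse or human cells, 6 fell and 2 rose in conditioned medium. Of all 19087 genes 12272 passed there in either direction. The median of the 15 was -0.11 SD units, against -0.075 over all genes. The 4 called genes were all lower, against 5.29% of all genes called lower. Cyclin D1 (Ccnd1), which drives entry into the cell cycle, stood at -2.05 ± 0.31, the growth factor gene Pdgfa at -1.73 ± 0.18, the nitric oxide synthase gene Nos3 at -1.43 ± 0.20 and the branched-chain aminotransferase gene Bcat2 at -1.11 ± 0.47, and the values of each were negative on all 6 arrays. The cell cycle inhibitor gene Cdkn1a, a target of Klf4, stood at 0.00 ± 0.24. With Y27632 none of the 15 was called, 4 rose and 2 fell.

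**Figure D4:**
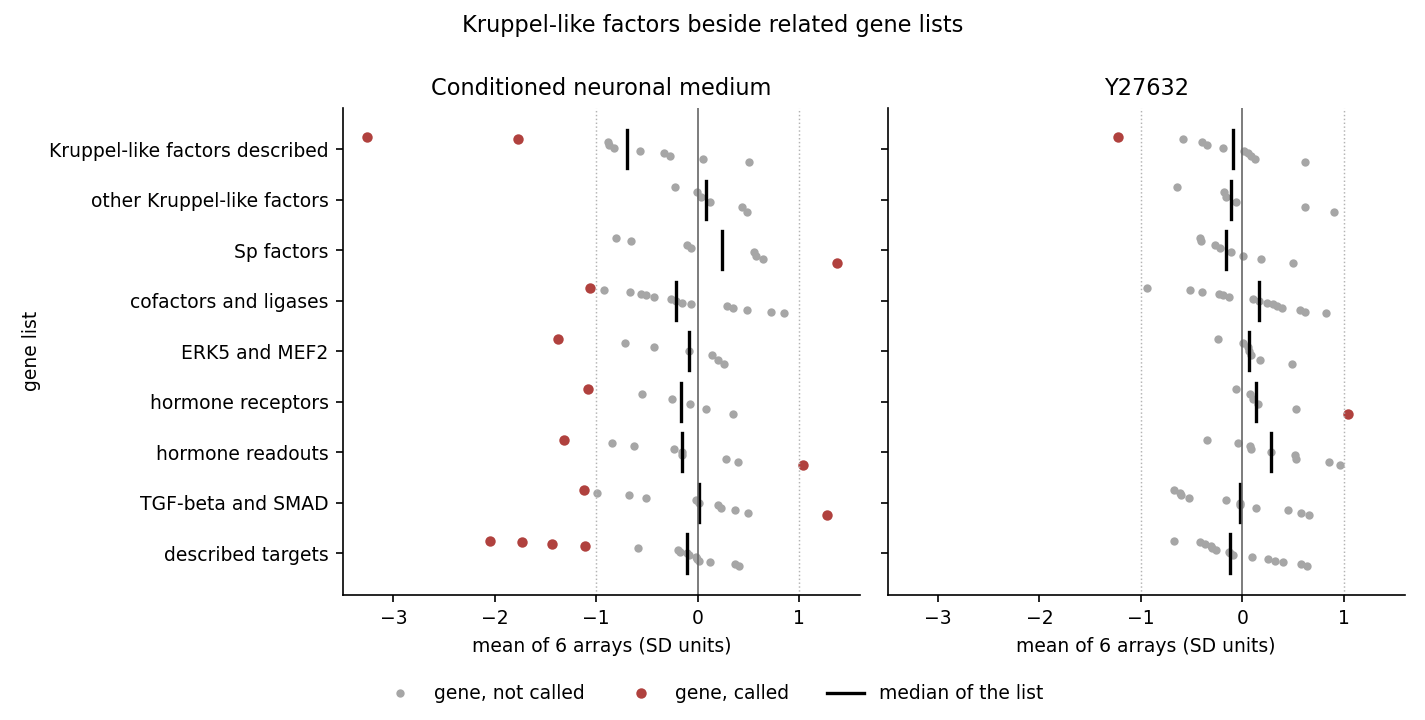
Change of each measured gene in the Kruppel-like factor list and the related lists, as gene means in SD units, for conditioned neuronal medium and Y27632, where each point is a gene (larger and red if called), bars are list medians and dotted lines mark 1 SD unit. Klf4 at -3.26 in conditioned medium is the lowest value, and the median of the 10 Kruppel-like factor genes is -0.69 there and -0.09 with Y27632.

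Cell type markers were read as changes only, because ratios carry no level, and whether neuronal or other markers are near 0 cannot be seen. In conditioned medium 4.95% of all genes were called higher and 5.29% lower. Of 9 oligodendroglial markers 5 were called higher (Olig1, Olig2, Cnp, Opalin and Ugt8a) and 1 lower (Mbp at -1.19). These 5 genes, and Nefl below, are on the study's own list of genes up-regulated by this medium. Their direction here is therefore no independent evidence. Of 10 neuronal markers 4 were called higher, among them Nefl at 3.08, the mean of features at 6.41 and -0.25. Slc17a7 (1.73, a single feature) and Gad1 (1.03, the mean of features at 0.06, 1.63 and 1.41) were called as well. Both were positive on all 6 arrays. Tubb3, also called, stood at 2.17 within the Cy3 arrays and -0.12 within the Cy5 arrays. By the adjusted p 6 of the 10 rose and 2 fell. Of 6 astrocyte markers 1 was called higher and 1 lower (Gfap at -2.94). Of 5 microglial markers 1 was called higher (C1qa at 2.23), and 0 of 5 endothelial markers were called. With Y27632 3.19% of all genes were called higher and 2.68% lower. Among the markers, 3 oligodendroglial genes and Gfap (1.91) were called higher and Nefl lower (-2.58), and no microglial or endothelial marker was called. Of the 3 oligodendroglial genes, Cnp and Opalin are on the study's list of genes up-regulated with both treatments. By the adjusted p 6 of the 10 neuronal markers fell and 1 rose, where 7639 of all 19087 genes passed in either direction. The part of the markers in the changes of the Kruppel-like factor genes was not tested. In bulk RNA fewer cells of a type and less RNA per cell cannot be told apart.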

How the data were processed

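The authors hybridised cDNA amplified by PCR, read the spots with their image software, took saturated features from a second scan at low gain and applied a loess normalization. The deposited values are scores, standardized log ratios with a standard deviation of 1 on every array. Signs were turned to read treated over untreated, after the genes in the study's tables. Gene names came from the array annotation, matched to RefSeq for 31906 of 32089 listed probes. Features of a gene were averaged.

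Each experiment was fitted in limma 3.58.1 (R 4.3.3) with a mean and a dye term, without a filter on low values, and two-sided p-values were given a Benjamini-Hochberg adjustment over the 41230 features or the 19087 genes. Differences between treatments were fitted on all 12 arrays, with a mean and a dye term for each experiment. The fits were tested on simulated data. All members are described, and of the related lists the called genes, up to 4 per list and treatment by smallest adjusted p. Cdkn1a was named after its values were seen. The members and lists were chosen with earlier results of these data known. The number of arrays limits the precision. Alternatives were other scalings, centrings and dye models, single orientations, other size limits, a replicate block and leaving out each array.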

Additional observations from a re-analysis of the deposited data

Results flagged for a closer look

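The value of Klf4 with Y27632 on replicate 3, -0.85 SD units, stood apart from the other 5 arrays (gap over range 0.684). It was the single such value in 36 groups of 6 arrays. The limit used is passed by about 1 in 20 groups of independent normal values. Groups that mix the dye orientations are not of that kind, so this rate does not apply to them. The difference between treatments, conditioned neuronal medium minus Y27632, passed limma's test for 8 features. It was -3.89 for Klf4, -1.70 for Klf2 feature 20686, -0.94 for Klf6 feature 4303, -0.87 and -0.50 for Klf9 features 19762 and 15201, -0.77 for Klf5 feature 21495, -0.67 for Klf3 feature 14009 and 1.04 for Klf13 feature 8585.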

How the results depend on the processing

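The number of called features in conditioned neuronal medium was 6, and became 0 when the orientations were averaged first, 9 with scaling by the median absolute deviation, 15 by adjusted p alone and 2 at a limit of 2 SD units, and stood at 5 to 7 with an array left out. The called features of the whole array, 5112 in the fit as reported, became 75, 8711, 24952 and 873 with the first 4 of these settings. In those settings the counts of members moved in the same direction as those of all features. Within the Cy3 arrays 9 members and 7935 of all features were called. Within the Cy5 arrays 5 members and 10161 of all features were called, so there the directions differed. The 2 called genes became 5 with scaling by the median absolute deviation, 1 with orientations averaged first (Klf4), 6 within the Cy3 arrays, 9 by adjusted p alone and 1 at 2 SD units. In the same settings the called genes of the whole array, 1954 in the fit as reported, became 3478, 335, 3119, 12272 and 345. Within the Cy5 arrays 2 genes were called, while the called genes of the whole array went from 1954 to 3763. With Y27632 the 1 called feature became 0 with orientations averaged first, 4 within the Cy3 arrays, 2 within the Cy5 arrays and 6 by adjusted p alone, and the 1 called gene became 0, 3, 2 and 4 in the same settings and 0 at 2 SD units. Over the whole array the called features with Y27632 went from 3326 to 0, 8930, 8797 and 15195 in these settings. The called genes went from 1120 to 0, 3196, 3186 and 7639, and to 106 at 2 SD units. The 8 features that differed between treatments became 3 without the dye terms and stood at 7 to 10 with an array left out. Over the whole array 19081 features differed in the fit as reported, 7281 without the dye terms and 17422 to 18973 with an array left out. Averaging the orientations first leaves 2 values a fit, and the cause of the other changes was not tested. Values changed sign for Klf2 feature 20686 within the Cy5 arrays of conditioned medium (0.46) and within the Cy3 arrays of Y27632 (-2.80), where the gene mean of Klf2 was -1.73. Among results that passed by adjusted p without being called, the sign also changed within the Cy5 arrays for Klf10 (0.73 in conditioned medium and 0.62 with Y27632), for the gene mean of Klf2 in conditioned medium (0.13) and for Klf3 with Y27632 (0.27 for feature 9181 and 0.19 for the gene mean), and within the Cy3 arrays of conditioned medium for Klf5 feature 26344 (0.51) and Klf7 feature 29707 (0.04). The difference of Klf9 feature 15201 lost its call without replicate 1 or 4 of conditioned medium or replicate 5 of Y27632, among other settings. With a replicate block 8 features differed, the same number as without it. For same-numbered arrays, deviations from the mean of their treatment and dye orientation correlated with r from -0.048 to 0.084. Each such mean rests on 3 arrays, so these values show no pairing by number but cannot exclude it. No signal over background is known for the features, which limits what the small changes can show.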
